A study of Mus musculus with 235 samples.

Results

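The genes described here encode the subunits of the voltage-gated calcium and sodium channels. They were taken from a table of 27998 genes as those whose symbol begins with Cacna, Cacnb or Cacng, or has the form of a numbered sodium channel alpha or beta gene (Scn1a, Scn2b and so on). A mean level of at least 2 CPM over all 235 libraries was also required, where CPM are a gene's counts scaled to a common library total. Of 40 matching symbols, 32 were members: 11 calcium channel pore (alpha1) and alpha2delta genes, 4 calcium channel beta genes, 6 gamma genes, 7 sodium channel pore (alpha) genes and 4 sodium channel beta genes. Among the genes with a matching symbol, the rule used the level over all libraries and no difference between groups. Just inside the minimum were Cacng8 at 3.33 CPM and Scn7a at 4.11 CPM. Just outside the minimum were Cacna2d4 at 1.603 CPM and Cacng6 at 1.23 CPM. The remaining 6 symbols were the skeletal muscle, retinal and sensory neuron genes Cacna1s, Cacna1f, Cacng1, Scn10a and Scn11a at 0.0977 to 0.586 CPM, and Scn4a, which had 0 counts.

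The study measured RNA in tissue punched from 8 brain regions, which are called here by their labels: PFC, AMY, PVN, CER, and dorsal and ventral punches named dCA1, dDG, vCA1 and vDG. All animals were male C57Bl/6 mice of 3 months with no genetic change named in the labels. An intraperitoneal injection gave 15 mice the glucocorticoid receptor agonist dexamethasone (10 mg per kg) and another 15 mice saline alone (vehicle). The brains were collected after 4 h, and each region and arm gave 13 to 15 libraries, each from a separate animal.

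A voltage-gated calcium channel has a pore-forming alpha1 subunit that opens when the membrane depolarises, together with an intracellular beta subunit and an extracellular alpha2delta subunit that set how many channels reach the surface. A sodium channel has an alpha subunit that carries the rising phase of the action potential and beta subunits that tune its gating and anchor it to neighbouring proteins. The T-type alpha1 subunits open near the resting potential and support burst firing, and most brain gamma subunits are better known as auxiliary subunits of AMPA receptors.

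The libraries held 268538 to 1451422 counts each (median 742957), so members of a few CPM rested on a few counts per library. Libraries were made from transcript 3' ends, so levels are CPM without division by transcript length. The labels were checked against marker genes. The 15 vehicle libraries labelled CER had Gabra6, a cerebellar granule cell gene, at 0 and a median of 0 for Pcp2, a Purkinje cell gene. Of 6 hypothalamic markers, Otp averaged 43.5 CPM there and Crh, Trh, Oxt, Avp and Sim1 0.0795 to 10.5 CPM. CER is therefore used only as a label. The dCA1 libraries held dentate granule cell markers at a summed median of 1184 CPM, above the 928 CPM of dDG, and the vCA1 and vDG medians were 208 and 357 CPM. In 5 libraries (1 vCA1 vehicle, 3 vDG vehicle and 1 vDG dexamethasone) the punch had a cerebellar marker sum above 100 CPM, from 196 to 1035 CPM. Mean RNA integrity was 7.75 in PFC vehicle libraries and 5.91 to 6.69 in the vehicle libraries of the other regions. In bulk tissue, fewer cells of a type and less RNA per cell cannot be told apart.

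The upstream sequences of Scn9a and Cacna2d1 are shown because their transcripts had different regional profiles, Scn9a highest in PVN and Cacna2d1 highest in PFC, and because both have a single RefSeq start. Each is the 250 bases before the RefSeq start on GRCm38.p6, read 5′ to 3′ on the gene's strand, and neither window holds an annotated exon base. The first lies at chr2:66634963-66635212 on the minus strand and the second at chr5:15934441-15934690 on the plus strand. Capitals mark matches to 5 motifs searched on both strands with overlaps allowed.
Scn9a: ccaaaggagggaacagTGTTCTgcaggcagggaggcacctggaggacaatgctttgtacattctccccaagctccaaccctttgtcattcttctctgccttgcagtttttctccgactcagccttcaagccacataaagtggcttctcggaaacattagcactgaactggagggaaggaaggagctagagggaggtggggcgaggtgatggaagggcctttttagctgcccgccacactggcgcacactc
Cacna2d1: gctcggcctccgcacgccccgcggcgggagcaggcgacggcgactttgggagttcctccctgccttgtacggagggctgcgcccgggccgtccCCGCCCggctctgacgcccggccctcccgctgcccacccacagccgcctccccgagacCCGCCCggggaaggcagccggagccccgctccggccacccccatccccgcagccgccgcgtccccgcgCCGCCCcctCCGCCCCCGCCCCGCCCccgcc
The Scn9a window is 54.4% G and C and holds 1 match to AGAACA, a single arm of the glucocorticoid response element. The Cacna2d1 window is 82.4% G and C and holds 6 matches to the GC box GGGCGG. The median over all 32851 entries of the RefSeq promoter table was 52.4% G and C. Of the 15 members with a single entry, 6 held a GC box, against 32.7% of all entries, and 2 held AGAACA, against 16.1%. None of the 15 held the full element, AGAACA and TGTTCT separated by any 3 bases (0.009% of all entries), the cyclic AMP element TGACGTCA (1.55%) or the TATA box TATAAA (12.4%). These matches describe letters in a window and are not evidence of binding.

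Levels in vehicle animals. All 29 members that passed the filter on low counts differed among the 8 regions, where 73.3% of the 10451 genes tested did so (edgeR quasi-likelihood F test, Benjamini-Hochberg adjusted p under 0.05, animal as a block). Cacng8 and Scn7a were among the members that did not pass that filter. Without the filter Scn7a also differed among the regions (adjusted p = 2.33e-08), and Cacng8 did not pass the threshold (adjusted p = 0.105). Summed over all members, the level was highest in PFC at 3348 ± 173 CPM (SD, n = 15) and dCA1 at 3324 ± 324 CPM, and lowest in CER at 2631 ± 233 CPM. The members with the highest mean levels over vehicle libraries were Scn8a at 385 CPM, Scn2a at 298 CPM, Cacnb4 at 227 CPM, Cacna2d1 at 187 CPM and Cacna1a at 181 CPM. PFC was the region of the highest mean for 9 members, PVN for 6 and dCA1 for 5. CER had the lowest mean for 15 of 32 members.

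**Figure D1:**
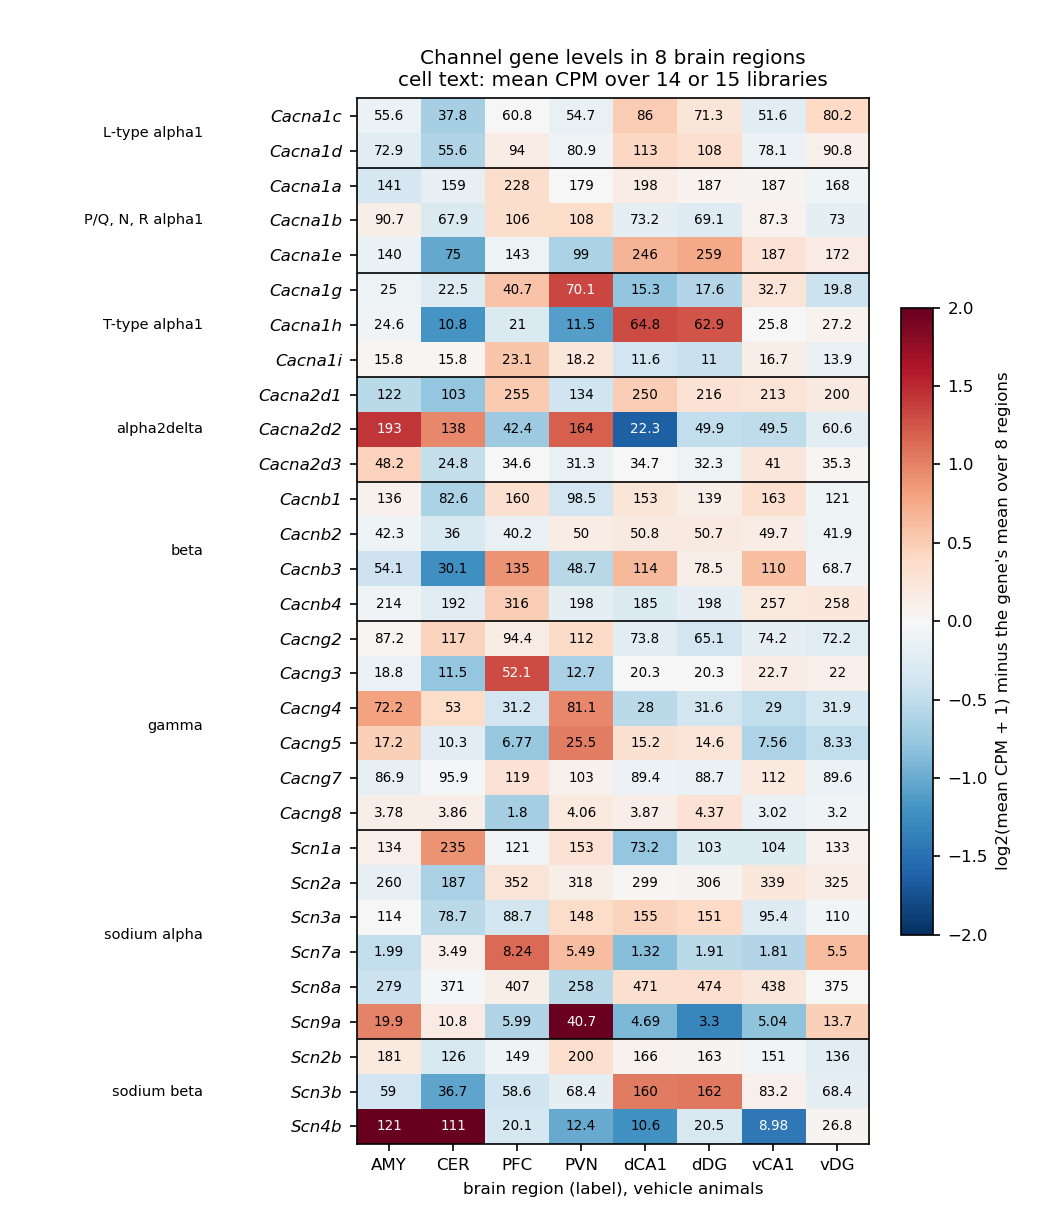
Levels of 30 members in vehicle animals. Rows are genes ordered by role, columns are regions, each cell prints the mean level in CPM, and colour is log2 of that mean plus 1 minus the gene's own average of it over the 8 regions, limited to 2 on either side. Cacna2d2, Scn4b and Scn9a show wide ranges over regions, and CER is the lowest column for 15 genes.

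Against the mean of the other 7 regions, the number of the 29 tested members that passed the threshold varied by region. In CER 5 members were higher and 16 lower (background 47.9%, and 23.9% for lower). PVN had 10 higher and 10 lower (background 41.1%), and dCA1 had 12 higher and 8 lower (background 39.1%). PFC had 11 higher and 6 lower (background 39.5%, and 19.6% for higher). In dDG 8 were higher and 8 lower (background 32.8%), in vCA1 7 and 7 (background 19.7%), and in AMY 7 and 6 (background 25.1%). vDG had 3 higher and 1 lower (background 10.6%). The median log2 difference of the members was -0.32 in CER, against -0.01 for all genes tested there, and 0.13 in PFC, against -0.02. With the neuron marker level as a covariate these member medians were -0.11 in CER and 0.004 in PFC, and with RNA integrity as a covariate the PFC median was 0.05.

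The L-type pore genes Cacna1c and Cacna1d, whose channels couple depolarisation to transcription, were both highest in dCA1 and lowest in CER. Cacna1d ranged from 71.2 to 167 CPM in dCA1 with a median of 113 CPM, and from 20.3 to 133 CPM in CER with a median of 52.4 CPM. Those 2 groups of libraries overlapped. Cacna1d was higher in dCA1 than in the other 7 regions by 0.51 ± 0.11 (log2, SE, adjusted p = 5.33e-05) and lower in CER by -0.69 ± 0.13 (adjusted p = 1.36e-06). Cacna1c had a mean of 86.0 ± 27.7 CPM in dCA1 (SD, n = 15) and 37.8 ± 11.3 CPM in CER (SD, n = 15).

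Among the presynaptic pore genes, Cacna1a encodes the P/Q-type channel of fast transmitter release. Its means ran from 141 ± 17.8 CPM in AMY to 228 ± 46.2 CPM in PFC. Cacna1e (R-type) ranged more widely, from 161 to 375 CPM with a median of 258 CPM in dDG, and from 43.5 to 130 CPM with a median of 67.6 CPM in CER. No CER library reached the lowest dDG library. Its log2 difference from the other 7 regions was 0.88 ± 0.10 in dDG (adjusted p = 1.86e-12), 0.80 ± 0.10 in dCA1 and -1.18 ± 0.13 in CER. Cacna1b, the N-type gene, had means between 67.9 CPM in CER and 108 CPM in PVN.

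The T-type pore genes Cacna1h and Cacna1g had different regional orders. Cacna1h (Cav3.2) was highest in dCA1, with 49.1 to 89.3 CPM and a median of 60.4 CPM, and in dDG, with 24.6 to 112 CPM and a median of 52.5 CPM. It was lowest in CER, with a mean of 10.8 ± 5.75 CPM, and in PVN, with 5.92 to 19.9 CPM and a median of 11.4 CPM. All dCA1 libraries were above all PVN libraries. The log2 difference from the other regions was 1.53 ± 0.12 in dCA1 (adjusted p = 4.32e-21) and -1.35 ± 0.18 in PVN (adjusted p = 1.16e-10). Cacna1g (Cav3.1) had its highest level where Cacna1h was low. In PVN it ranged from 28.4 to 102 CPM with a median of 68.9 CPM, and in dCA1 from 3.77 to 26.4 CPM with a median of 12.7 CPM, so that these groups did not overlap. Its log2 difference in PVN was 1.62 ± 0.14 (adjusted p = 3.01e-19). Cacna1i (Cav3.3) had means from 11.0 CPM in dDG to 23.1 ± 7.66 CPM in PFC.

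Of the alpha2delta genes, Cacna2d1 and Cacna2d2, whose products bind gabapentin, were high in different regions. Cacna2d2 had the larger range. It ran from 130 to 254 CPM with a median of 191 CPM in AMY, from 119 to 245 CPM with a median of 154 CPM in PVN and from 5.65 to 44.1 CPM with a median of 20.7 CPM in dCA1. Every AMY and PVN library was above every library of dCA1, PFC, vCA1 and dDG, while the vDG libraries reached up to 147 CPM. The ratio of the AMY mean (193 CPM) to the dCA1 mean (22.3 CPM) was 8.67. Its log2 difference from the other regions was 1.68 ± 0.10 in AMY (adjusted p = 1.19e-28) and -1.92 ± 0.16 in dCA1 (adjusted p = 3.82e-20). Cacna2d1 had means of 255 ± 32.6 CPM in PFC and 250 ± 51.6 CPM in dCA1, against 122 ± 28.6 CPM in AMY and 103 ± 44.9 CPM in CER. Cacna2d3 was more even, with means of 24.8 to 48.2 CPM.

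The beta genes encode the intracellular subunits that carry alpha1 to the membrane. Cacnb4 was the most abundant, at 316 ± 44.2 CPM in PFC (SD, n = 15) and 185 ± 32.4 CPM in dCA1 (SD, n = 15). Cacnb3 varied most. It ranged from 107 to 173 CPM with a median of 135 CPM in PFC, and from 16.2 to 69.1 CPM with a median of 27.0 CPM in CER, with no overlap. Its log2 difference was 1.03 ± 0.09 in PFC (adjusted p = 2.94e-18) and -1.44 ± 0.13 in CER (adjusted p = 1.25e-18). Cacnb1 was lowest in CER at 82.6 CPM and Cacnb2 had means of 36.0 to 50.8 CPM.

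The gamma genes of this set are mainly the AMPA receptor auxiliary subunits known as TARPs. Cacng3 stood out in PFC, with 32.8 to 79.3 CPM and a median of 52.1 CPM. Its median was 25.0 CPM or less in each of the other 7 regions, and the log2 difference in PFC was 1.52 ± 0.12 (adjusted p = 1.14e-21). Cacng4 was higher in PVN (81.1 ± 11.2 CPM), AMY (72.2 ± 16.9 CPM) and CER (53.0 ± 11.4 CPM) than in the other 5 regions, where means were 28.0 to 31.9 CPM. Cacng7, the gamma gene with the highest level, had means between 86.9 and 119 CPM. Cacng2 was highest in CER at 117 CPM, Cacng5 was highest in PVN at 25.5 CPM, and Cacng8 had means of 1.80 to 4.37 CPM.

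Of the sodium channel pore genes, Scn8a (Nav1.6, the main channel of the mature axon initial segment) was the most abundant in all regions except PVN, where Scn2a had the higher mean. Scn8a ranged from 361 to 600 CPM with a median of 481 CPM in dDG and from 205 to 326 CPM with a median of 260 CPM in PVN. Those groups did not overlap. Its log2 difference was 0.40 ± 0.06 in dDG (adjusted p = 2.04e-08) and -0.62 ± 0.07 in PVN (adjusted p = 7.59e-14). Scn1a (Nav1.1, prominent in fast-spiking inhibitory neurons) had a mean of 235 ± 40.9 CPM in CER and 73.2 ± 21.6 CPM in dCA1. Scn2a and Scn3a had means of 187 to 352 CPM and 78.7 to 155 CPM, lowest in CER for both.

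The less abundant pore genes had the steepest profiles. Scn9a (Nav1.7, best known from pain-sensing neurons) ranged from 26.2 to 57.1 CPM with a median of 40.0 CPM in PVN and from 0 to 10.8 CPM with a median of 3.22 CPM in dDG. The PVN libraries were above every library of CER, PFC, vCA1, dCA1 and dDG, and overlapped those of AMY and vDG. Its log2 difference in PVN was 2.42 ± 0.16 (adjusted p = 8.82e-27). Exons of Scn9a share 1.41% of their bases with Gm13629 on the opposite strand, a gene with 1280 counts against 2474 for Scn9a, and the use of strand in counting is not given in the sources used here, so a part of the Scn9a level may belong to that gene. Scn7a, a gene related to the channels but gated by sodium, was highest in PFC at 8.24 ± 4.07 CPM. Without the filter on low counts it was lower in dDG than in vDG by -1.33 ± 0.45 (adjusted p = 0.0448).

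Of the sodium channel beta genes, Scn2b was the most abundant, with means from 126 ± 32.3 CPM in CER to 200 ± 41.6 CPM in PVN. Scn4b, whose product supports resurgent current, was spread most. It ran from 12.1 to 348 CPM with a median of 75.2 CPM in AMY, from 17.2 to 246 CPM with a median of 104 CPM in CER and from 1.32 to 15.2 CPM with a median of 8.70 CPM in vCA1. The SD was 113 CPM over AMY libraries and 60.5 CPM over CER libraries, and the lowest AMY library lay inside the vCA1 range. Its log2 difference was 2.39 ± 0.22 in AMY (adjusted p = 3.01e-17) and 2.40 ± 0.22 in CER (adjusted p = 1.21e-17). Scn3b had, like Cacna1h, its highest levels in the dorsal punches, with means of 162 ± 34.1 CPM in dDG, 160 ± 28.4 CPM in dCA1 and 36.7 ± 22.5 CPM in CER.

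**Figure D2:**
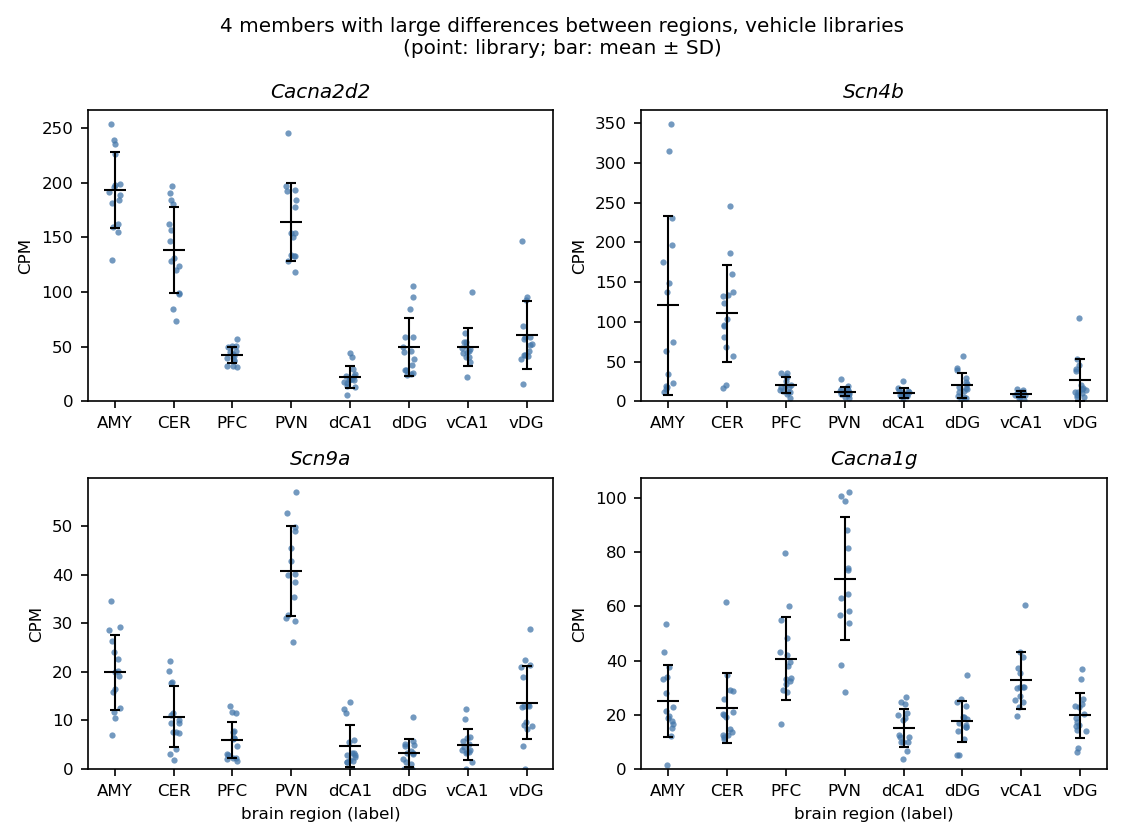
Level of Cacna2d2, Scn4b, Scn9a and Cacna1g in each vehicle library, by region, in CPM on a linear axis from 0. Points are libraries and bars are the mean ± SD of 14 or 15 animals. AMY and PVN stand high for Cacna2d2, PVN for Scn9a and Cacna1g, and the AMY libraries of Scn4b spread from 12.1 to 348 CPM.

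The regional profiles were also read in the dexamethasone arm, which consists of other animals. Over the 8 region means, the correlation of a member's profile between arms had a median r of 0.959 and was above 0.9 for 27 of 32 members. The lowest was 0.259 for Cacng8 and the highest 0.992 for Cacnb3. The region of the highest mean was the same for 21 members and that of the lowest mean for 26. These correlations describe 8 points that share the region's tissue and are given without a test.

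Dorsal against ventral punches. Of 29 members tested in vehicle animals, 12 differed between dCA1 and vCA1, where 22.1% of all genes did. The 7 with higher levels in dCA1 were Cacna1h, Cacng5, Scn3b, Cacna1c, Scn3a, Cacna1d and Cacna1e, by 0.41 to 1.36 on the log2 scale. The 5 with lower levels were Cacna2d2 (-1.18 ± 0.20, adjusted p = 1.03e-06), Cacna1g (-1.08 ± 0.24), Scn1a (-0.47 ± 0.14), Cacnb4 (-0.44 ± 0.11) and Cacng7 (-0.34 ± 0.12). Between dDG and vDG, 9 members differed, against 15.3% of all genes. Scn3b was higher in dDG by 1.26 ± 0.14 (adjusted p = 3.16e-12) and Cacna1h by 1.24 ± 0.17 (adjusted p = 6.01e-09), with Cacng5, Cacna1e, Scn3a and Scn8a also higher. Scn9a was lower by -2.07 ± 0.33 (adjusted p = 4.07e-07), and Scn1a and Cacnb4 were lower as well. In both contrasts 7 members were called (7 of the 12 and 7 of the 9), each with the same sign in both: Cacna1e, Cacna1h, Cacnb4, Cacng5, Scn1a, Scn3a and Scn3b. Over all genes, 949 were called in both, which is 41.1% of those called between dCA1 and vCA1 and 59.3% of those called between dDG and vDG, and 930 of the 949 had the same sign. The contrasts share animals.

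The dorsal and ventral punches also differed in their dentate marker sums, as given above. The covariate was the dentate marker level, the mean log2 CPM of the listed genes in each library, and not their sum. With it, none of the 12 members called between dCA1 and vCA1 kept its call, and 5 of them changed sign. Over all genes the share called fell from 22.1% to 2.38% with the same covariate. The median standard error of the 12 grew from 0.148 to 0.240. Scn4b was the 1 member called with the covariate (log2 difference 3.25, adjusted p = 0.00574). Without the covariate Scn4b was not called between dCA1 and vCA1. These punches had the lowest vehicle means of Scn4b among all regions, with 8.98 CPM in vCA1 and the next lowest mean in dCA1. The value of 3.25 depends on the covariate and is not taken as a higher level of Scn4b in dCA1. Between dDG and vDG, 4 members were called with the covariate, where 6.78% of all genes were. Scn3b (0.87 ± 0.17, adjusted p = 9.22e-05), Scn8a (0.32 ± 0.10, adjusted p = 0.0319) and Scn9a (-2.58 ± 0.42, adjusted p = 3.47e-06) kept their calls, and Cacna1c (-0.65, adjusted p = 0.00580) was added. The part of dentate tissue in the other differences cannot be told apart from that of the region by these fits.

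**Figure D3:**
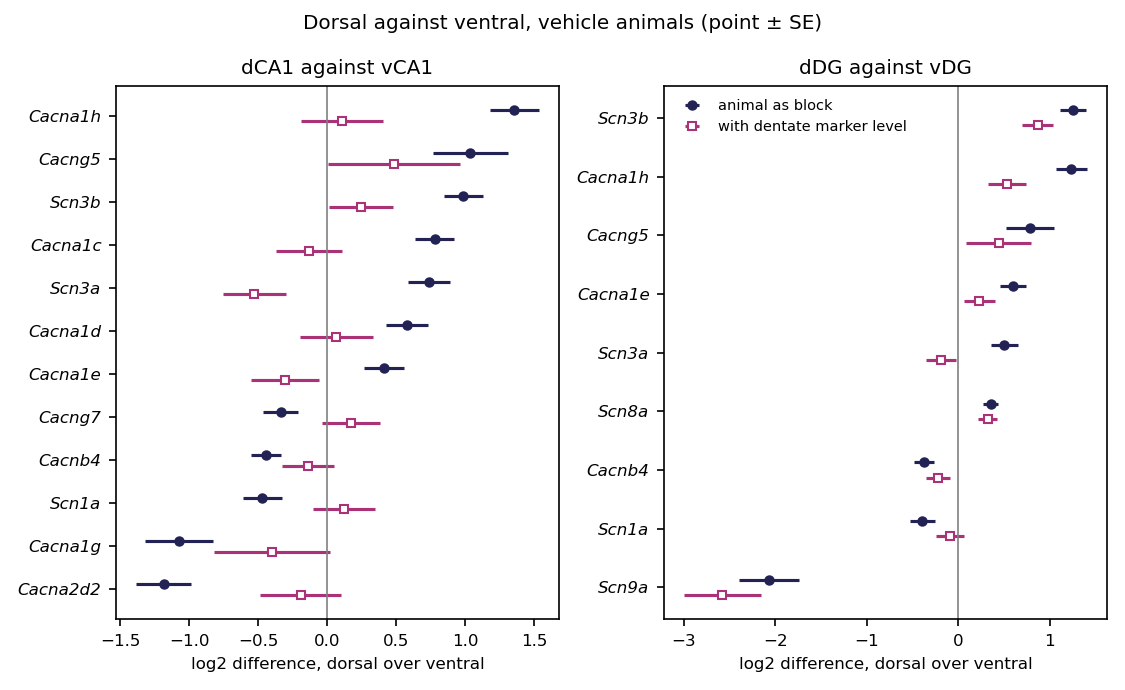
Log2 difference ± SE between dorsal and ventral punches of vehicle animals for the members past the threshold, with dCA1 against vCA1 and dDG against vDG in separate panels. Filled and open symbols are the fits without and with the dentate marker level as a covariate. The open symbols of the CA1 panel lie between -0.53 and 0.48, while those of Scn3b and Scn9a in the dentate panel are at 0.87 and -2.58.

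Within the dorsal and within the ventral punches, fewer members differed. Between dCA1 and dDG there were 2 of 29 (background 1.89%), Cacnb3 higher by 0.49 ± 0.13 and Cacna2d2 lower by -1.15 ± 0.20 in dCA1. Between vCA1 and vDG there were 6 of 29 (background 12.5%). Cacnb3 (0.63), Cacnb1 (0.42) and Cacna1g (0.67) were higher in vCA1, and Scn9a (-1.49), Scn4b (-1.42) and Cacna1c (-0.62) were lower.

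The libraries with cerebellar markers bear on several of these genes. Cacna1a was at 440 CPM in the vCA1 vehicle library concerned, against 105 to 220 CPM in the other 13. In vDG vehicle animals it was at 353 and 427 CPM in the libraries with the higher cerebellar sums and at 123 CPM in the one with the lowest, against 82.6 to 175 CPM in the other 12. In the vDG dexamethasone library it was at 605 CPM, against 90.4 to 205 CPM. Scn1a, Scn2a and Cacng2 were above all other libraries of the group in 3 of these 5. Between dDG and vDG without these libraries, Scn3a (0.33, adjusted p = 0.156) and Scn1a (-0.24, adjusted p = 0.296) lost their calls and Cacna1a gained one (0.45, adjusted p = 0.00211).

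Dexamethasone against vehicle. The question was which channel genes change within 4 h of a glucocorticoid in each region. Of 214 tests of a member in a region, 5 passed the threshold (4 higher and 1 lower) and 30 had an unadjusted p under 0.05. In PFC 2 of 27 tested members were called, both higher (background 6.14%, and 3.86% for higher). In PVN 2 of 27 were called, 1 higher and 1 lower (background 5.63%, and 3.57% for higher), and in vCA1 1 of 26, higher (background 5.45%, and 3.41% for higher). None was called of 28 in AMY (background 5.62%), 26 in CER (6.18%), 25 in dCA1 (4.68%), 27 in dDG (3.70%) and 28 in vDG (3.93%). In those 5 regions the edgeR test gave 1, 1, 5, 4 and 1 members with an unadjusted p under 0.05. DESeq2 called 1 member in dCA1 (Cacnb1) and 1 in dDG (Cacng4) there. Over the 8 regions together, 5.17% of all tests of a gene in a region passed, and the 5 of 214 are a smaller share than the background of any single region. Vehicle and dexamethasone libraries of equal number shared a plate, and with the replicate number as a block 10 of the 214 tests passed (6 higher and 4 lower), against 6.41% of all tests. All 5 calls were among the 10. The block added Cacng4 in dDG (-0.56, adjusted p = 0.0141), Cacna1e (0.27, adjusted p = 0.0142) and Cacng3 (-0.36, adjusted p = 0.0394) in PFC, and Cacna1b (0.28, adjusted p = 0.0164) and Cacng5 (-0.55, adjusted p = 0.0131) in PVN. The median log2 change of the members lay between -0.04 and 0.09 in each region, against -0.02 to 0.00 for all genes tested.

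Cacna1h was the member with the most calls. In PVN its level ran from 5.92 to 19.9 CPM with a median of 11.4 CPM in vehicle animals, and from 8.26 to 38.4 CPM with a median of 20.7 CPM after dexamethasone. Of the 15 dexamethasone libraries, 9 were above the highest vehicle library and 13 above the vehicle median. It rose by 0.99 ± 0.18 (log2, SE, adjusted p = 7.57e-05). In PFC it ran from 10.2 to 33.4 CPM with a median of 20.3 CPM in vehicle animals, and from 16.4 to 53.2 CPM with a median of 30.3 CPM after dexamethasone, a rise of 0.58 ± 0.16 (adjusted p = 0.0217). There 13 of 14 dexamethasone libraries were above the vehicle median, and the groups overlapped.

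In vCA1 Cacna1h ran from 10.7 to 43.1 CPM with a median of 26.2 CPM in vehicle animals, and from 23.9 to 58.7 CPM with a median of 36.1 CPM after dexamethasone, a rise of 0.58 ± 0.17 (adjusted p = 0.0285). The groups overlapped, with 12 of 15 dexamethasone libraries above the vehicle median. The same libraries differed in dentate markers: 2 of 4 tested, Dsp (1.95, adjusted p = 0.000788) and Npnt (1.22, adjusted p = 0.00837), were higher after dexamethasone, and the summed level of the 7 listed ran from 120 to 340 CPM in vehicle and from 133 to 864 CPM in dexamethasone libraries. With the dentate marker level as a covariate the vCA1 difference was 0.41 (adjusted p = 0.401). It also missed the threshold with plate and punching date as factors (0.55, adjusted p = 0.0537) and without 3 dexamethasone libraries that the authors' normalized tables leave out (0.53, adjusted p = 0.0616).

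In the remaining 5 regions the log2 difference of Cacna1h was 0.49 ± 0.21 in CER (adjusted p = 0.209), 0.22 ± 0.18 in dDG, 0.21 ± 0.14 in AMY, 0.17 ± 0.22 in vDG and 0.04 ± 0.11 in dCA1. It was positive in 8 of 8 regions. The smallest value was in dCA1, where its vehicle level was highest, and the largest in PVN, where that level was near its lowest. Exons of Cacna1h share 1.62% of their bases with Tpsg1 on the opposite strand, which had 9 counts in all.

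Cacna1g, the other abundant T-type gene, fell in PVN. It ran from 28.4 to 102 CPM with a median of 68.9 CPM in vehicle animals and from 31.1 to 89.4 CPM with a median of 49.2 CPM after dexamethasone. The ranges overlapped almost wholly, but 14 of 15 dexamethasone libraries lay below the vehicle median. The log2 change was -0.49 ± 0.14 (adjusted p = 0.0216), and it was negative in 6 of the 7 regions tested. In vCA1 Cacna1g (-0.47 ± 0.17, adjusted p = 0.0912) and Cacna1i (-0.48 ± 0.16, adjusted p = 0.0893) did not pass. In PVN, hypothalamic markers varied widely between libraries, from 51.1 to 2216 CPM with a median of 283 CPM in vehicle and from 13.1 to 3007 CPM with a median of 962 CPM in dexamethasone animals. None of the 6 was called, and their median log2 change was 0.69. With their mean log2 level as a covariate, both PVN differences passed (Cacna1h 0.99, adjusted p = 0.000134, and Cacna1g -0.51, adjusted p = 0.0220).

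Scn3b, a sodium channel beta subunit gene, rose in PFC. It ran from 37.2 to 81.1 CPM with a median of 57.3 CPM in vehicle animals and from 58.4 to 97.2 CPM with a median of 77.6 CPM after dexamethasone. All 14 dexamethasone libraries lay above the vehicle median and 5 above the highest vehicle library. The log2 change was 0.40 ± 0.10 (adjusted p = 0.00690). In the other regions it was positive in 6 of 7, up to 0.40 ± 0.18 in vDG (adjusted p = 0.347), and negative in CER (-0.18 ± 0.21). With the dentate marker level as a covariate Scn3b passed in vDG (0.45, adjusted p = 0.0159). Each of the 5 differences called without the block had the same sign within all 4 plates and within 4 of the 5 punching dates named in the labels. The remaining date held 1 vehicle library in each region and was not read. These subsets hold the same libraries that gave the calls, so equal signs are not independent support. Within plates, the difference ran from 0.60 to 1.13 for Cacna1h in PVN, from 0.16 to 0.53 for Scn3b in PFC, from -0.76 to -0.08 for Cacna1g in PVN, and from 0.17 to 1.04 in PFC and 0.50 to 0.78 in vCA1 for Cacna1h. Within punching dates it ran from 0.17 to 1.27 in PVN, 0.08 to 1.05 in PFC and 0.19 to 1.05 in vCA1 for Cacna1h, from 0.14 to 0.54 for Scn3b and from -0.87 to -0.23 for Cacna1g.

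Markers of cell types also moved with dexamethasone. None of the 15 general neuron markers was called in any region. P2ry12, a microglia marker, fell in 8 of 8 regions, from -1.17 in dCA1 to -0.70 in PFC, and was the 1 marker called of the 6 or 7 tested there, whose median change was -0.24 to 0.003. Opalin, an oligodendrocyte marker, fell in AMY, CER, PVN, vCA1 and vDG (-1.35 to -0.83), and Mog fell in AMY. No other of the 7 or 8 oligodendrocyte markers tested was called, their median change was -0.44 to 0.002 over the 8 regions, and their summed mean in CER was 13466 CPM in vehicle and 13505 CPM in dexamethasone libraries. The cortical layer marker Rorb fell in AMY, dCA1, dDG, vCA1 and vDG (-0.73 to -0.40), and Fezf2 fell in vCA1, of 3 to 6 cortical markers tested in a region with a median change of -0.41 to 0.003. Of the dentate markers, Prox1 fell in AMY, CER and PVN and Plk5 in dCA1, beside the rises of Dsp and Npnt in vCA1. From 3 to 7 dentate markers were tested in a region, and their median change was 1.01 in vCA1 and -0.36 to 0.02 in the other regions. In dCA1 1 astrocyte marker rose and 1 fell, in CER 1 oligodendrocyte precursor marker rose, and in vCA1 1 choroid plexus marker fell. The part of these markers in the members' differences was not tested, apart from the fits with the neuron, dentate and hypothalamic markers as covariates.

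**Figure D4:**
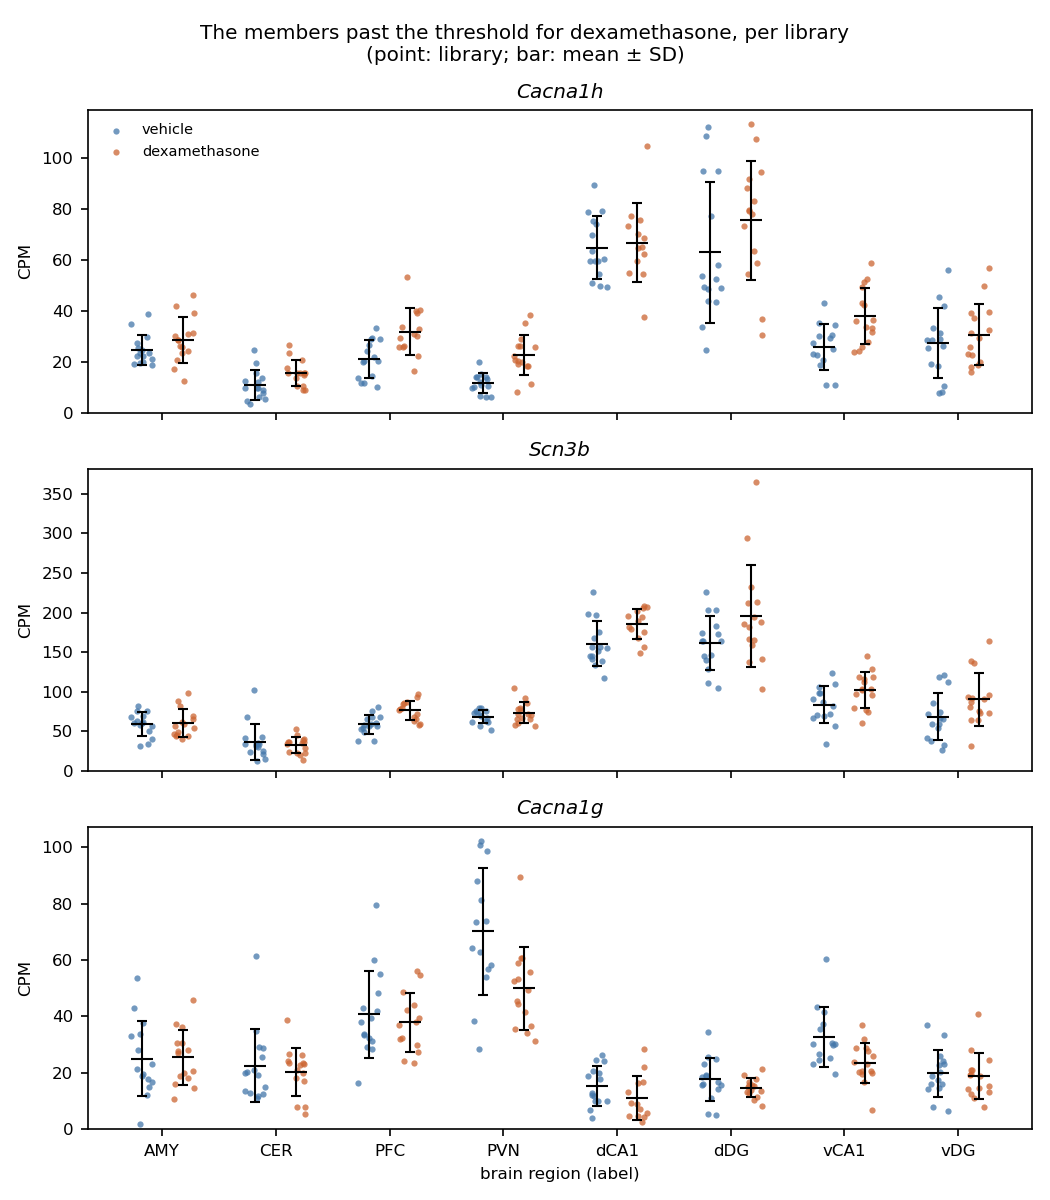
Level of Cacna1h, Scn3b and Cacna1g in each library, in CPM on a linear axis, by region and arm. Points are libraries and bars are the mean ± SD of 13 to 15 animals. The Cacna1h libraries of PVN shift from a median of 11.4 to 20.7 CPM, while those of dCA1 have medians of 60.4 and 64.9 CPM.

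The other 26 members tested had no call in the edgeR test without the block. Cacnb1 was lower after dexamethasone in 8 of 8 regions, from -0.30 in dCA1 to -0.03 in PVN, with a smallest adjusted p of 0.0648. In dCA1 it was called by DESeq2 (-0.29, adjusted p = 0.0369) and with the neuron (-0.32, adjusted p = 0.0402) or dentate (-0.31, adjusted p = 0.0433) marker covariate. In vCA1 it was called by DESeq2 (-0.26, adjusted p = 0.0468), without the libraries with cerebellar markers (-0.30, adjusted p = 0.0216) and without the libraries that the authors' normalized tables leave out (-0.29, adjusted p = 0.0384). Cacnb2 was higher in 8 of 8, from 0.06 in CER to 0.31 in dCA1, with a smallest adjusted p of 0.237. Both were singled out after their values were seen. Cacng4 in dDG (-0.54, adjusted p = 0.0656), Cacna1b in PVN (0.25, adjusted p = 0.0746) and Cacng5 in PVN (-0.50, adjusted p = 0.0861) came nearest to the threshold otherwise. Beside DESeq2 and the block, Cacng4 in dDG passed with the neuron marker covariate (adjusted p = 0.0200), the dentate marker covariate (adjusted p = 0.0361) and plate and punching date as factors (adjusted p = 0.0426). Cacna1b in PVN also passed with plate and date as factors (adjusted p = 0.0460). The most abundant members stayed within narrow limits: Scn8a between -0.07 and 0.18, Scn2a between -0.13 and 0.08 and Cacnb4 between -0.11 and 0.05 over the 8 regions, none past the threshold.

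**Figure D5:**
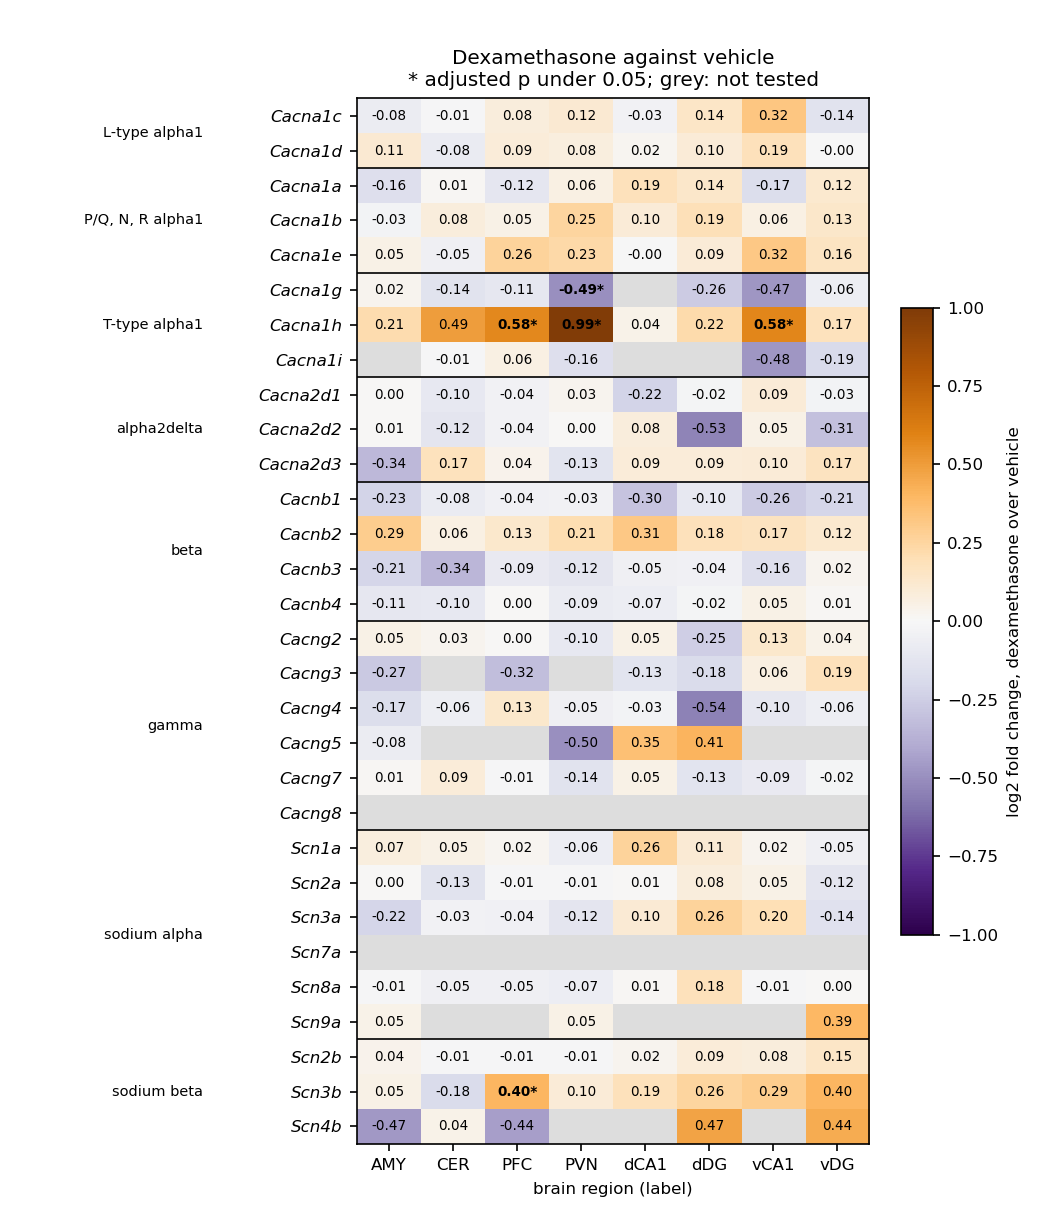
Log2 change after dexamethasone of 30 members in each region. Rows are genes ordered by role, colour is the log2 fold change, an asterisk marks an adjusted p under 0.05 and grey cells were not tested. The 5 asterisks are Cacna1h in PFC, PVN and vCA1, Scn3b in PFC and Cacna1g in PVN.

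Whether the response differed between regions was tested as an interaction. Of 30 members, none passed among the 8 regions (background 1.27%) in edgeR or in limma-voom. In the edgeR test 2 had an unadjusted p under 0.05, Cacna1h (p = 0.00705, adjusted p = 0.247) and Cacng5 (p = 0.0467, adjusted p = 0.656). Of 27 members, none passed between dCA1 and vCA1 (background 0.0826%) in either tool. There 2 had an unadjusted p under 0.05 in edgeR, among them Cacna1h (difference of log2 changes, vCA1 minus dCA1, 0.50 ± 0.18, adjusted p = 0.539). A response of Cacna1h or Scn3b limited to the regions that passed is therefore not shown.

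Partners of the channels were read from 4 lists. Among proteins that anchor or regulate sodium channels, 22 genes were listed and 21 tested in at least 1 region, with 4 higher and 1 lower of 164 tests. For this and the other 3 lists the background is the 5.17% of all tests of a gene in a region given above, or 6.41% with the block. Nedd4l, a ubiquitin ligase known to remove sodium channels from the membrane, accounted for 3 of these. In PFC its level ran from 154 to 242 CPM with a median of 197 CPM in vehicle animals and from 222 to 334 CPM with a median of 254 CPM after dexamethasone, a rise of 0.41 ± 0.07 (adjusted p = 9.92e-05). It also rose in PVN by 0.41 ± 0.08 (adjusted p = 0.000287) and in vCA1 by 0.42 ± 0.09 (adjusted p = 0.00245). With the dentate marker level as a covariate the vCA1 difference of Nedd4l was 0.21 ± 0.10 (adjusted p = 0.398). With it, the differences in dCA1 (0.36 ± 0.08, adjusted p = 0.00132) and dDG (0.36 ± 0.07, adjusted p = 0.000558) passed the threshold. Without the covariate those were 0.21 (adjusted p = 0.401) and 0.37 (adjusted p = 0.139). Nedd4l in dDG also passed with the replicate block (0.39, adjusted p = 0.00687) and with the neuron marker covariate (0.42, adjusted p = 0.0236). Its vehicle mean was 202 CPM in vCA1, against 368 CPM in dCA1 and 361 CPM in dDG. Tnr, an extracellular matrix gene, rose in PFC (0.29) and Fgf11 fell in vCA1 (-0.52). With the block Fgf11 did not pass (-0.49, adjusted p = 0.0855) and Nfasc in AMY did (0.28, adjusted p = 0.0135).

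Of calcium store and extrusion genes, 24 were listed and 20 tested, and 5 of 145 tests passed, all of them Itpr2, an inositol trisphosphate receptor of the endoplasmic reticulum. In CER Itpr2 ran from 46.1 to 79.2 CPM with a median of 65.1 CPM in vehicle animals and from 77.1 to 132 CPM with a median of 92.3 CPM after dexamethasone. Those ranges barely overlapped, and the rise was 0.53 ± 0.09 (adjusted p = 1.88e-05). It also rose in vDG, AMY, PVN and PFC by 0.41 to 0.47. The AMY difference missed the threshold with RNA integrity as a covariate (0.37, adjusted p = 0.0606), and mean RNA integrity there was 6.11 in vehicle and 5.69 in dexamethasone libraries. In dCA1 Itpr2 passed with the block (0.53, adjusted p = 0.00281) and without the libraries that the authors' normalized tables leave out (0.52, adjusted p = 0.0404). Without either change it was 0.43 (adjusted p = 0.205), and with the dentate marker level as a covariate 0.17 ± 0.13 (adjusted p = 0.609). With the block 11 of the 145 tests passed, 9 higher and 2 lower, where 6.41% of all tests did, adding Stim1 in PVN and vDG, Atp2b1 in PFC, Atp2c1 in PVN and Itpr1 in vCA1. Of 30 calcium channel regulators and release partners, 24 were tested and 1 of 190 tests passed, Camk2g in PVN (-0.26, adjusted p = 0.0367). The block added Stx1a in PFC (-0.26, adjusted p = 0.00944). The last list held 12 genes of AMPA receptor subunits, other auxiliary proteins and scaffolds. Of its 89 tests 1 passed, Gria1 in PFC (0.40 ± 0.09, adjusted p = 0.00105). The block added Gria2 (0.20), Shisa7 (0.34) and Gria4 (-0.30) there. Over the 4 lists and 8 regions the median log2 change was between -0.11 and 0.08.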

How the data were processed

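Reads per gene were counted by the authors and deposited as whole-number counts for 27998 genes in 235 libraries. Per the labels' protocols, libraries came from a 3' end kit with molecular identifiers. The submitters' processing notes name FastQC 0.11.4, cutadapt, UMI-tools 0.5.4, STAR 2.6.0a, featureCounts 1.6.4, DESeq2 1.30.1, R 4.0.5 and the build mm10, without parameters. The authors also deposited variance-stabilised log2 values per region, which hold 228 libraries. They served here only to name the 7 libraries they leave out. Symbols came from GENCODE M21, which gave one to 27645 genes. Of these, 99.9% overlapped their GRCm38 position. For the membership rule, CPM were counts scaled by the library total. All other CPM given here were also scaled by TMM factors computed over all 235 libraries.

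The members and lists were chosen with earlier results of these data known. The test on counts was the quasi-likelihood test of edgeR 4.0.16 (filterByExpr, TMM scaling) in R 4.3.3, with Benjamini-Hochberg adjustment over all genes tested and a threshold of 0.05. The standard error is the absolute log2 difference divided by the square root of F. Dexamethasone was tested per region over both arms, without covariates. Equal replicate numbers across arms mark a shared plate in all 115 pairs of libraries and a shared punching date in 109, per the labels, so the number was taken to pair them. In the deviations from the group means, the median correlation of same-numbered libraries was 0.05 in vCA1 to 0.22 in PFC, against -0.03 to -0.004 for other numbers, and the correlation was above 0.1 in 4 of 14 pairs in vCA1 to 12 of 15 in dDG. Regional levels were tested over all vehicle libraries, and interactions over both arms, with the animal as a block, since labels tie the punches to animals. DESeq2 1.42.0 and limma 3.58.1 were alternatives, and scripts were tested on simulated data. Summaries and figures used pandas 2.3.3, matplotlib 3.10.9 and numpy 2.4.6 under Python 3.11.15. All members enter the counts, and 2 of them are not reported here by name or value. Values per group are given for members past the threshold after dexamethasone, for those with the highest level and the largest ratio of region means in each role, and for partner genes past the threshold in at least 2 regions. Scn9a, Scn1a and other genes outside that rule were described after their values were seen. The fits without the libraries with cerebellar markers and with hypothalamic markers as a covariate were chosen after seeing the data. P-values of the dexamethasone tests measure the spread between animals. Those of the regional and interaction tests, with the animal as a block, measure the spread that remains between punches within animals.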

Additional observations from a re-analysis of the deposited data

How the results depend on the processing

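The count of 5 members past the threshold after dexamethasone was 8 with DESeq2 and 10 with the replicate number as a block, and both kept all 5. The block changed no other call of a member after dexamethasone than the 5 it added. Without the animal as a block, the regional counts stayed at 29, 12 and 9 members, and no interaction passed. With the dentate marker level as a covariate, the count was 1 in place of 12 between dCA1 and vCA1 and 4 in place of 9 between dDG and vDG. There Cacna1c (-0.13), Scn3a (-0.53), Cacna1e (-0.31), Scn1a (0.12) and Cacng7 (0.17) changed sign between dCA1 and vCA1, and Scn3a (-0.19) between dDG and vDG. In the dexamethasone libraries 14 members differed between dDG and vDG, where 21.2% of all genes did, against 15.3% in the vehicle libraries. With the neuron marker level as a covariate, 4 of the 12 and 5 of the 9 lost their calls. Calls were also gained, among them Cacna1b between dCA1 and vCA1 (-0.40, adjusted p = 0.0184) and Scn2b between dDG and vDG (0.35, adjusted p = 0.0141). The causes were not tested. Upper-quartile scaling moved the median of all genes by at most 0.04 (log2). Apart from these 5 moved counts, 68 recomputed counts were within 1.5 times the value given. Of the recomputed differences of named genes, 248 kept direction and call, 30 lost the call and 6 changed sign. Groups of 13 to 15 were not reduced by leaving out single animals. Members of a few CPM were left out of the tests by the filter on low counts and were tested only without it, and a missing call does not show that a gene was unaffected.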
